A study of Mus musculus with 24 samples.

Results

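The transcripts described here encode the 5 subunits of the kainate receptor, Grik1 to Grik5, and the 2 auxiliary proteins Neto1 and Neto2. They were taken by symbol, and all 7 were listed among the 33902 symbols of the single-nucleus RNA sequencing (snRNA-seq) table. Kainate receptors are glutamate-gated ion channels built from 4 subunits. Grik1, Grik2 and Grik3 encode the low-affinity subunits GluK1, GluK2 and GluK3, which can form channels alone. Grik4 and Grik5 encode the high-affinity subunits GluK4 and GluK5, which need a low-affinity partner. Neto1 and Neto2 are transmembrane proteins that bind the receptor and alter its gating. In the hippocampus, kainate receptors are best known at the mossy fiber synapse, where axons of dentate gyrus (DG) granule neurons contact CA3 pyramidal neurons, and in interneurons.

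Adult male mice of 2 inbred strains gave the nuclei, taken from ventral hippocampus. The strains were C57BL/6J (B6) and DBA/2J (D2), and the animals were 10 to 16 weeks old. Each strain had 2 snRNA-seq and 2 single-nucleus ATAC sequencing (snATAC-seq) libraries, and each library pooled about 2 animals. For snRNA-seq, nuclei were sorted to a mixture enriched for the neuronal marker NeuN, so shares of nuclei do not reflect the tissue. No such sort was used for snATAC-seq. The deposited table holds raw counts summed over the nuclei of 17 cell types in each library, here numbered 2 and 3 as in the table. Cell types carry the study's names, with Exc for excitatory, Inh for inhibitory, NN for non-neuronal and CR for Cajal-Retzius cells, and several carry the name of a gene, as in Exc-Gpc6.

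The table summed 30880 nuclei, 16565 of B6 and 14315 of D2, and column totals ran from 139713 counts in CR-CR to 11352265 in Exc-DG. Defining markers fell in the cell types that carry their names, except that Prox1 and Ndnf were highest in CR-CR, Pou3f1 in Exc-Gpc6, Elavl2 in Inh-MGE and Lhx6 in Inh-Lamp5. Neuronal transcripts were also counted in non-neuronal nuclei. Slc17a7, an excitatory marker, stood at 11.0% to 20.2% of its highest cell type in the 5 NN types, and the inhibitory markers Gad1 and Gad2 at 1.35% to 10.3% and 0.551% to 1.45%. Levels are given as CPM, the counts of a transcript scaled to a common column total. Cell types were clustered on these same transcripts, so differences in level between them are described without a test.

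The members fell into different patterns of level. Grik1 was highest in interneurons, Grik2 was high in most neurons, Grik3 was highest in Exc-ENT, Grik4 and Neto1 were highest in Exc-CA3, Grik5 was nearly even among neurons, and Neto2 was highest in Exc-ENT. These highest cell types were the same with counts per nucleus, with TMM scaling and with totals over symbols counted in both strains. The exception was Grik5, for which Exc-CA1-Camk2d came first when B6 library 2 or D2 library 3 was left out.

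**Figure D1:**
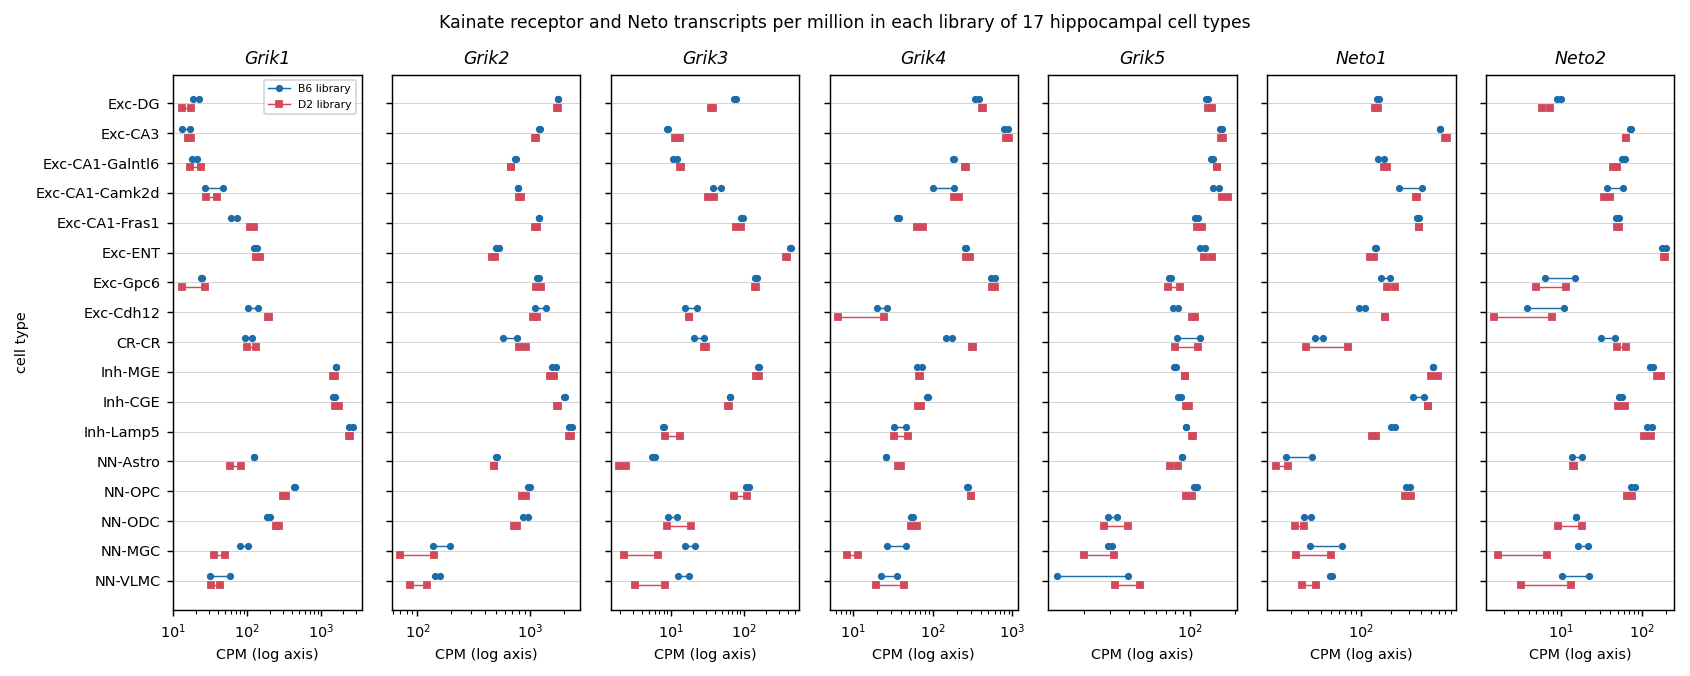
CPM (log axes, a separate scale for each gene) of the 7 transcripts in 17 cell types, with a point for each library and a line joining the 2 libraries of a strain. Grik1 lies at 1436 to 2702 CPM in the libraries of the 3 Inh types and at 447 CPM or less elsewhere, and Grik4 and Neto1 peak in Exc-CA3.

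Grik1 averaged 2483 CPM in Inh-Lamp5 (2379 to 2702 over the 4 libraries), 1576 in Inh-CGE and 1538 in Inh-MGE. The ranges of Inh-CGE and Inh-MGE overlapped, and both lay below Inh-Lamp5. Oligodendrocyte precursors (NN-OPC) followed at 380 CPM (304 to 447) and oligodendrocytes (NN-ODC) at 225 (185 to 267). Among the 8 Exc types, Grik1 was highest in Exc-Cdh12 at 158 CPM and Exc-ENT at 134, and it was lowest in Exc-CA3 at 15.7, a 159-fold span from Inh-Lamp5. NN-OPC held 15.3% and NN-ODC 9.05% of the Inh-Lamp5 level of Grik1, where Gad1 held 10.3% and 1.61% of its own highest level and Gad2 0.551% and 1.25%.

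Grik2 ranged less, 18.0-fold from 2281 CPM in Inh-Lamp5 (2213 to 2360) to 127 in NN-VLMC. Inh-CGE at 1897 CPM and Exc-DG at 1768 (1748 to 1781) followed, and their ranges overlapped. Exc-CA3 stood at 1175 CPM, and its range overlapped those of Exc-Gpc6, Exc-Cdh12 and Exc-CA1-Fras1. The lowest neuronal level was in Exc-ENT, at 497 CPM (456 to 536), which overlapped astrocytes (NN-Astro) at 492.

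Grik3 averaged 410 CPM in Exc-ENT (376 to 440), followed by Inh-MGE at 157 and Exc-Gpc6 at 146, which overlapped each other and not Exc-ENT. NN-OPC was next at 103 CPM (73.0 to 118). In Inh-Lamp5, where Grik1 was highest, Grik3 stood at 9.40 CPM, or 34 counts in all. It was lowest in NN-Astro at 3.96 CPM.

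The high-affinity subunits differed from each other. Grik4 averaged 862 CPM in Exc-CA3 (797 to 923), 578 in Exc-Gpc6 and 395 in Exc-DG, and no neighbours among these overlapped. It averaged 39.8 to 76.9 CPM in the Inh types and was lowest in Exc-Cdh12 at 19.4. NN-OPC held 290 CPM, or 33.7% of the Exc-CA3 level, where Slc17a7 held 11.0% of its highest level. Grik5 ranged only from 76.9 to 162 CPM over the 8 Exc types and from 86.7 to 100.01 over the 3 Inh types, and a single pair of its 16 neighbours, Exc-Gpc6 above NN-VLMC, did not overlap.

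The auxiliary genes were also unlike. Neto1 averaged 666 CPM in Exc-CA3 (615 to 726), 535 in Inh-MGE (502 to 590) and 425 in Inh-CGE, and the first 2 lay apart from each other and from the rest. NN-OPC was again the highest NN type, at 296 CPM. Neto2 averaged 187 CPM in Exc-ENT (177 to 197), 147 in Inh-MGE and 121 in Inh-Lamp5. In Exc-DG, Neto2 stood at 8.00 CPM.

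Long genes collect more intronic reads, so levels were compared between genes only per length, as CPM per 100 kb of gene span. On that scale Grik1 led the 5 subunits in the 3 Inh types, with 46.04% to 55.6% of their sum. Grik5 and Grik4 together made up 72.2% of the sum in Exc-CA3 (40.6% Grik5 and 31.6% Grik4), the highest share, and 14.96% in Inh-Lamp5, the lowest. A high combined share was not particular to Exc-CA3. It was 71.6% in Exc-CA1-Galntl6 (58.7% from Grik5 alone), 67.7% in Exc-CA1-Camk2d, 64.3% in NN-VLMC and 59.4% in NN-Astro, but 26.3% in NN-ODC. The share of Grik4 alone was largest in Exc-CA3. In Exc-DG the leading subunit was Grik2 with 43.1%, ahead of Grik5 with 36.2%. Exc-ENT was the cell type with the largest Grik3 share, 33.0%. Neto1 exceeded Neto2 per length by 3.39 on the log2 scale in Exc-DG and by 2.504 in Exc-CA3, and was lower by a log2 ratio of -1.26 in Exc-ENT. These shares rest on gene span, which ranges widely among the members, and not on mature transcripts.

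**Figure D2:**
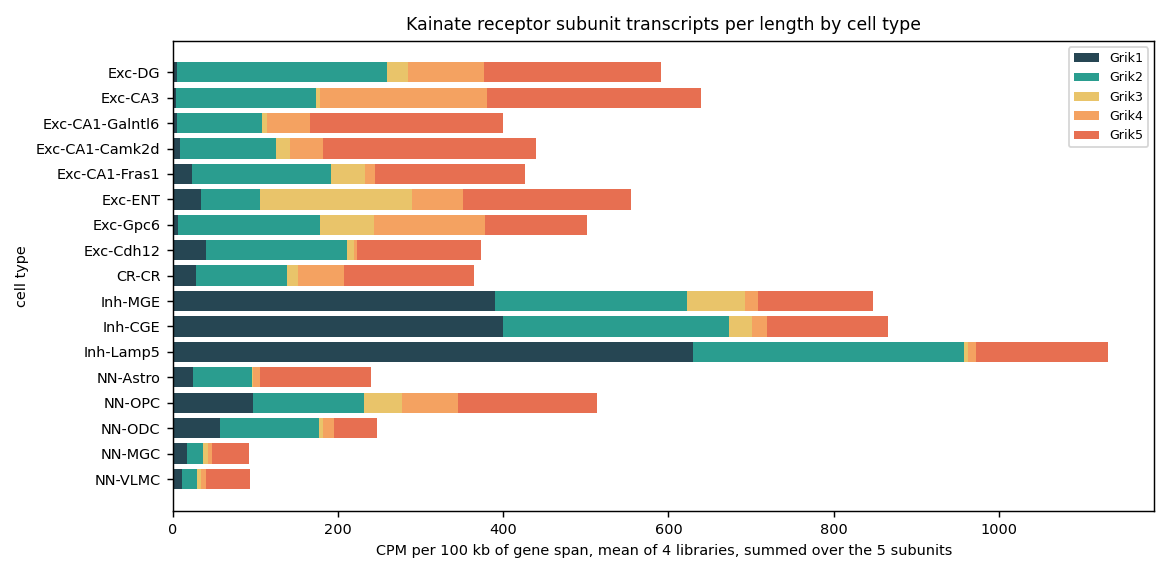
Mean CPM per 100 kb of gene span for the 5 subunits, stacked by cell type (4 libraries averaged). Grik1 fills about the same part of each Inh bar (46.04% to 55.6%) and little of the Exc bars, where Grik2, Grik4 and Grik5 make up most.

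Over the 17 cell types, the pair of members most alike in log2(CPM + 1) was Grik5 and Neto1 (Pearson r = 0.66), followed by Grik2 and Grik5 (0.62) and Grik2 and Neto1 (0.62). The least alike were Grik1 and Grik4 (r = -0.44). Among 13305 transcripts, those closest to Grik1 were Ccdc174 (r = 0.91), Erbb4 (0.89) and Nxph1 (0.86). Grik2 lay closest to Adam22 (0.89), Lrrtm1 (0.89) and 5330434G04Rik (0.88), and Grik3 to Olfm3, Gm49191 (both 0.82) and Cdh18 (0.80). Grik4 had its nearest neighbours at Lcmt1 and Gm13481 (both 0.78) and Muc15 (0.75). For Grik5 they were Macrod2os1 (0.94), Hectd2os (0.93) and Gm37679 (0.93). Neto1 was most like Nrxn3 (0.91), Scn1a (0.91) and Tmem179 (0.89), and Neto2 most like Htr2a (0.85), Slc7a3 (0.82) and Plcxd3 (0.81). The points share libraries and depth, so these values are descriptions.

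Strains were compared within each cell type by edgeR's quasi-likelihood test, with Benjamini-Hochberg adjustment over all transcripts tested there, and called at an adjusted p under 0.05. Of 112 pairs of a member and a cell type that passed the filter on low counts, 20 were called (17.9%), 9 higher and 11 lower in D2. Grik3 was not tested in CR-CR, Inh-Lamp5, NN-MGC and NN-VLMC, and Neto2 not in Exc-Cdh12, NN-MGC and NN-VLMC, for low counts. Over all transcripts and cell types together 22.1% of tests were called, 58.2% of them higher in D2. That background moved with the filter, and whether the strains were counted on the same gene models was not tested. With counts required in both strains 14.4% of all tests were called, 42.7% of them higher in D2, beside 16 of the same 112 member pairs (14.3%). The share of all transcripts called was 36.0% in Exc-DG, 35.0% in Exc-CA1-Galntl6, 32.1% in Exc-CA3, 28.5% in Exc-CA1-Fras1, 28.0% in Exc-ENT and 26.2% in NN-Astro. It was 21.0% in Inh-MGE, 19.7% in Exc-Gpc6, 19.4% in Exc-CA1-Camk2d, 19.0% in NN-ODC, 16.2% in NN-OPC and 15.1% in Inh-CGE. The lowest shares were 12.1% in Inh-Lamp5, 10.4% in microglia (NN-MGC), 8.44% in Exc-Cdh12, 7.87% in NN-VLMC and 4.26% in CR-CR. The p-values rest on 2 libraries per strain. edgeR estimates the spread of each transcript partly from the other transcripts tested, so they do not measure its own spread between libraries alone.

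Of the 20 calls, 5 held under all 12 alternatives that were run, which were Grik3 in Exc-DG, Grik4 in Exc-CA1-Fras1 and Exc-CA1-Galntl6, and Grik1 in Exc-CA1-Fras1 and NN-Astro. DESeq2 called 8 pairs, these 5 with Grik1 in NN-OPC, Grik2 in Exc-CA1-Galntl6 and Grik4 in Exc-DG. That was 6.72% of member pairs, beside 10.2% of all tests with DESeq2 and 22.1% with edgeR. Leaving out D2 library 3 also lowered the calls, of members and of all transcripts. With at least 10 counts required in every library, 14 of 104 member pairs were called (13.5%), beside 14.2% of all tests. Losses given below for single calls do not list every alternative.

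**Figure D3:**
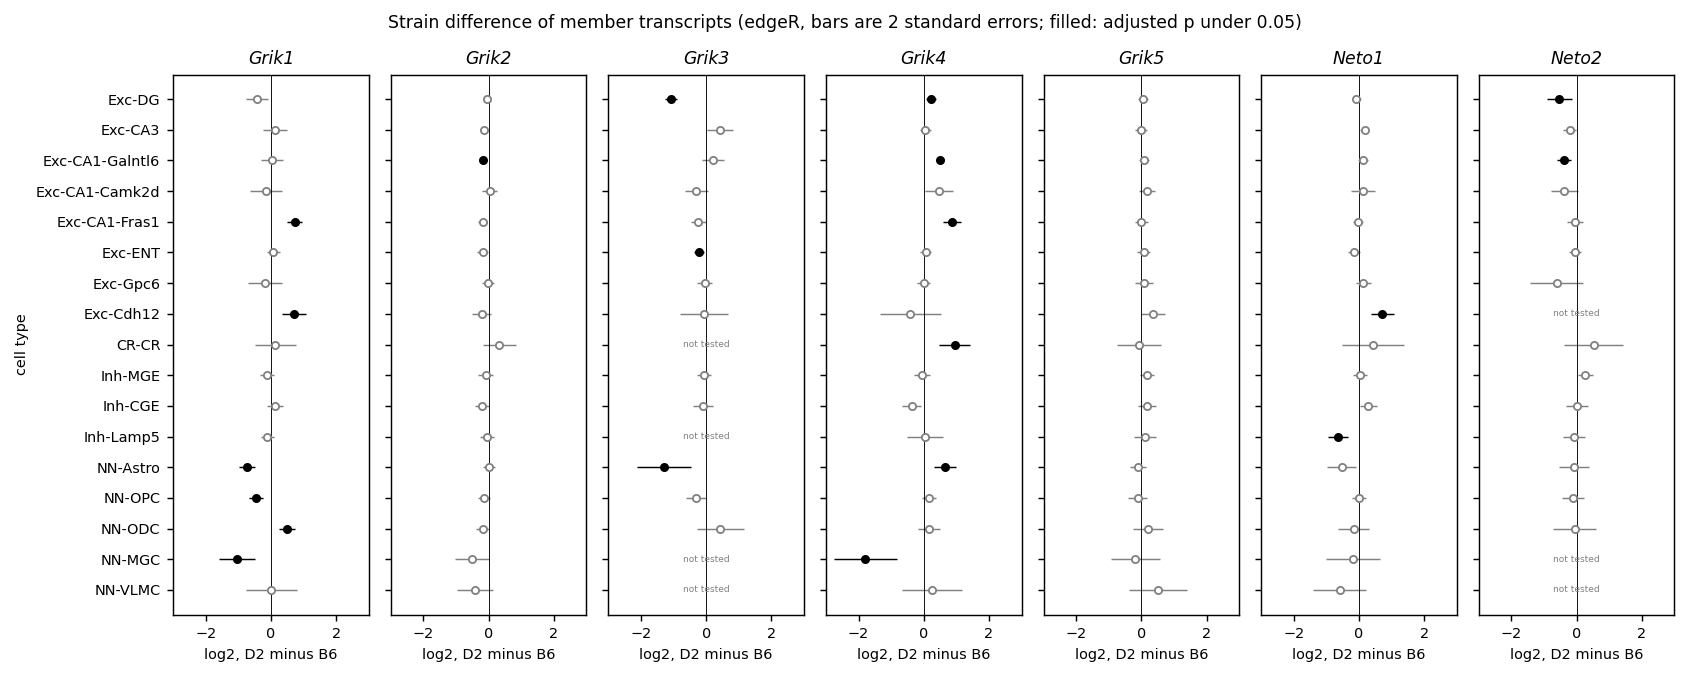
Log2 difference of D2 minus B6 for the 7 transcripts in each cell type tested, with bars of 2 standard errors and filled points at an adjusted p under 0.05 (edgeR, 2 libraries per strain). Grik3 in Exc-DG lies at -1.07, Grik4 is above 0 in 5 of its 6 called cell types, and no Grik5 point is filled.

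Grik3 transcripts were lower in D2 DG neurons. Exc-DG held 78.8 and 72.5 CPM of Grik3 in B6 and 35.1 and 38.2 CPM in D2. The strains did not overlap, and the difference was 2.10-fold (log2 -1.07 ± 0.09 SE, n = 2 and 2, adjusted p = 4.1e-07 by edgeR and 8.8e-13 by DESeq2). The dentate gyrus markers (3 of 3 detected) in Exc-DG summed to 359 and 377 CPM in B6 and 280 and 292 in D2. The excitatory markers there summed to 1423 and 1475 against 1268 and 1300. The part of either in the result was not tested. In Exc-ENT, its highest cell type, Grik3 stood at 428 and 440 CPM in B6 and 394 and 376 in D2, a log2 difference of -0.22 ± 0.08 (adjusted p = 0.036, edgeR). That call was lost with DESeq2 (0.079), with the replicate block (0.066), when B6 library 3 (0.15) or D2 library 3 (0.25) was left out. Either stricter filter ended it as well (0.053 and 0.054). In the other Exc types Grik3 was not called, with log2 differences from -0.30 in Exc-CA1-Camk2d to 0.43 in Exc-CA3. In NN-Astro, Grik3 was called lower in D2 (log2 -1.29 ± 0.41), from 5.47 and 6.002 CPM to 1.97 and 2.40, on 52 counts in all. Leaving out any of the 4 libraries ended that call (adjusted p from 0.090 to 0.18). The summed excitatory markers (3 of 3 detected) in NN-Astro were 174 and 165 CPM in B6 and 117 and 89.2 in D2, and their part in the result was not tested.

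Grik4 transcripts were higher in D2 in 5 cell types. In Exc-CA1-Fras1 they stood at 37.7 and 35.3 CPM in B6 and 76.3 and 62.7 in D2 (log2 0.87 ± 0.13, adjusted p = 1.4e-05, edgeR). In Exc-CA1-Galntl6 they rose from 184 and 178 to 256 and 264 CPM (log2 0.49 ± 0.07, adjusted p = 1.4e-05, edgeR). The strains did not overlap in either. The CA3 markers (3 of 3 detected) summed to 50.6 and 41.9 CPM in B6 and 81.7 and 73.2 in D2 in Exc-CA1-Fras1, and to 101 and 98.6 against 113 and 104 in Exc-CA1-Galntl6. Their part in the result was not tested, and more Grik4 per nucleus cannot be told apart from a different makeup of nuclei within a cluster. The third CA1 cluster, Exc-CA1-Camk2d, had 186 CPM in B6 library 2, 100.3 in B6 library 3, and 211 and 187 in D2. It was not called (log2 0.46 ± 0.21, adjusted p = 0.16, edgeR), but passed with the replicate block (0.0059), with no filter on low counts (0.0056) and when B6 library 2 was left out (log2 0.96, adjusted p = 8.7e-12). In that last fit B6 held 1 library, which was assumed to vary like the D2 pair. Neto1 in the same cluster, at 409 and 239.6 CPM in B6 and 362 and 355 in D2, passed without B6 library 2 alone (log2 0.55, adjusted p = 2.6e-05), under the same assumption.

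Smaller or sparser Grik4 differences were called in 4 further cell types. Exc-DG went from 380 and 343 CPM in B6 to 433 and 421 in D2 (log2 0.22 ± 0.07, adjusted p = 0.029, edgeR), a call lost without B6 library 3 (0.21) or D2 library 2 (0.12). NN-Astro went from 25.7 and 25.6 to 36.2 and 39.7 (log2 0.66 ± 0.17, adjusted p = 0.0021, edgeR, 0.13 by DESeq2). In NN-Astro the summed excitatory markers were 174 and 165 CPM in B6 and 117 and 89.2 in D2. The oligodendrocyte precursor markers (3 of 3 detected) there were 48.25 and 52.12 in B6 and 61.25 and 63.64 in D2. The part of either in the result was not tested. CR-CR went from 177 and 147 to 322 and 314 (log2 0.95 ± 0.24, adjusted p = 0.027, edgeR), lost with the replicate block (0.14), and without B6 library 2 (0.19), B6 library 3 (0.51) or D2 library 3 (0.054). In CR-CR the Cajal-Retzius markers (3 of 3 detected) summed to 4721 and 5231 CPM in B6 and 3035 and 1287 in D2. The dentate gyrus markers there (3 of 3) summed to 252 and 201 against 351 and 597, and the CA3 markers (3 of 3) to 292 and 304 against 243 and 382. Their part in the result was not tested. NN-MGC was the cell type where Grik4 fell, from 46.7 and 26.9 to 11.4 and 8.43 CPM on 54 counts (log2 -1.79 ± 0.48, 0.024), lost without B6 library 2 (0.25) or D2 library 3 (0.13). In NN-MGC the summed excitatory markers went from 247 and 228 CPM in B6 to 143 and 167 in D2, and their part in the result was not tested. DESeq2 called Grik4 in neither CR-CR nor NN-MGC. In Exc-CA3, where Grik4 was highest, it stood at 0.05 ± 0.09 log2, not called.

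Grik1 differed in opposite directions among cell types. In Exc-CA1-Fras1 it rose from 72.4 and 60.7 CPM in B6 to 124 and 109 in D2 (log2 0.73 ± 0.12, adjusted p = 1.8e-05, edgeR), with summed inhibitory markers (3 of 3 detected) of 2.40 and 6.10 CPM in B6 and 4.42 and 7.32 in D2. The CA3 markers there summed to 50.6 and 41.9 CPM in B6 and 81.7 and 73.2 in D2. The vascular and leptomeningeal markers (3 of 3 detected) summed to 105 and 134 against 198 and 208. The part of these markers in the result was not tested. In NN-Astro Grik1 fell from 124 and 124 to 81.5 and 58.8 CPM (log2 -0.73 ± 0.13, 1.2e-05), while the inhibitory markers stood at 18.0 and 23.4 in B6 and 20.2 and 23.7 in D2. The oligodendrocyte markers (3 of 3 detected) in NN-Astro summed to 304 and 276 CPM in B6 and 135 and 117 in D2. Neither their part in the result nor that of the excitatory markers there, 174 and 165 against 117 and 89.2 CPM, was tested. Along the oligodendrocyte lineage the directions were opposite. NN-OPC held 447 and 434 CPM in B6 and 304 and 337 in D2 (log2 -0.45 ± 0.11, 5.1e-04), and NN-ODC held 185 and 204 in B6 and 243 and 267 in D2 (log2 0.49 ± 0.13, 0.0059). The oligodendrocyte markers in NN-OPC summed to 314 and 278 CPM in B6 and 521 and 352 in D2. The excitatory markers in NN-ODC summed to 167 and 163 in B6 and 115 and 72.8 in D2. The part of either in the result was not tested. The NN-OPC call was lost without D2 library 2 (0.055), and the NN-ODC call with DESeq2 (0.073) or without D2 library 3 (0.11).

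Grik1 was also called in Exc-Cdh12, from 139 and 103 CPM in B6 to 196 and 193 in D2 (log2 0.70 ± 0.18, adjusted p = 0.029, edgeR), and in NN-MGC, from 101 and 80.6 to 50.1 and 35.4 (log2 -1.04 ± 0.28, 0.024). The Exc-Cdh12 call was lost without B6 library 3 (0.19), D2 library 2 (0.20) or D2 library 3 (0.10), and the NN-MGC call without B6 library 2 (0.086) or D2 library 3 (0.21). DESeq2 called Grik1 in neither Exc-Cdh12 nor NN-MGC. In NN-MGC the inhibitory markers went from 25.3 and 25.5 CPM to 9.11 and 8.43, and their part in the result was not tested. In the 3 Inh types, where Grik1 is abundant, its log2 differences were 0.12, -0.11 and -0.12, none of them called.

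Grik2 and Grik5 had the fewest calls. Grik2 was called in Exc-CA1-Galntl6 alone, from 736 and 758 CPM in B6 to 675 and 686 in D2 (log2 -0.17 ± 0.05, adjusted p = 0.020, edgeR), a 1.12-fold difference. It was lost without B6 library 3 (0.076), D2 library 2 (0.092) or D2 library 3 (0.11). Short same-strand gene models within Grik2 held counts of their own, and 4 of them, Gm47017, Gm47023, Gm47016 and Gm47022, were at 0 in B6 and at 862, 290, 322 and 135 counts in D2. The models Gm26543 and Gm47018 held 333 and 178 counts in B6 and 237 and 141 in D2. Whether the strains were counted on the same gene models was not tested. Adding all such models to Grik2 left the difference at log2 -0.15 (adjusted p = 0.039). Grik5 was called in none of 17 cell types, with log2 differences from -0.19 to 0.52. In Exc-DG, where its counts were deepest, the interval of 2 SE for Grik5 ran from -0.10 to 0.21.

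The auxiliary genes gave 4 calls. Neto1 rose in D2 in Exc-Cdh12, from 95.1 and 110 CPM to 175 and 175 (log2 0.72 ± 0.17, adjusted p = 0.017, edgeR), and fell in Inh-Lamp5, from 218 and 199.5 to 143 and 128 (log2 -0.65 ± 0.15, 0.0027). The first was lost without D2 library 2 (0.16) or D2 library 3 (0.088), and the second without D2 library 3 (0.073). Neto2 fell in Exc-CA1-Galntl6, from 62.1 and 56.9 to 49.6 and 43.6 CPM (log2 -0.38 ± 0.10, 0.0092), and in Exc-DG, from 9.95 and 8.90 to 7.33 and 5.83 (log2 -0.53 ± 0.19, 0.045). Both were lost without D2 library 3 (0.14 and 0.27), and the Exc-DG call also without B6 library 2 (0.13). DESeq2 called none of these 4.

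Whether the strain difference varied among cell types was tested directly, with all strain by cell type terms of a single edgeR fit over the 17 cell types. Over all transcripts 14.6% were called in this test. Of the members, 4 of 7 were called, Grik1 (adjusted p = 3.4e-08), Grik3 (6.8e-08), Grik4 (2.9e-06) and Neto1 (0.012). Neto2 (0.062), Grik2 (0.64) and Grik5 (0.83) were not. Neto1 was lost without D2 library 2 (0.083) or D2 library 3 (0.15). Neto2 passed when only neuronal cell types were fitted (0.031), with no filter (0.0031), and without B6 library 2 (0.022), B6 library 3 (9.2e-05) or D2 library 2 (0.033).

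Genes known to act on kainate receptors were taken as a list, of which 22 were in the table, with scaffolds and trafficking proteins among them. Of 354 pairs of such a gene and a cell type, 96 were called (27.1%), 25 higher and 71 lower in D2, with a median log2 difference of -0.11. Over all transcripts 22.1% of tests were called and 58.2% of the calls were higher in D2, or 14.4% and 42.7% with counts required in both strains, where the partners had 84 calls, 20 of them higher. The members had a median of -0.04 over their 112 pairs. With DESeq2 the partner calls numbered 45 (12.2%), where 10.2% of all tests were called. Partner calls were also fewer without D2 library 3, as were calls over all transcripts. Among the partners called in the most cell types were Dlg2, which encodes the synaptic scaffold PSD-93, and Pick1, a PDZ protein of receptor trafficking. Dlg2 was lower in D2 in 11 of 17 cell types, by log2 -0.24 in Exc-DG to -1.15 in NN-Astro. Pick1 was lower in 9 of 16, by -0.43 in Exc-DG to -0.98 in Inh-Lamp5. NN-Astro had calls for 13 of 22 partners tested, NN-ODC for 9 of 21 and Exc-CA1-Galntl6 for 12 of 22. Over all transcripts, 26.2%, 19.0% and 35.0% were called in these cell types. The summed excitatory markers were lower in D2 in each NN type, at 174 and 165 CPM against 117 and 89.2 in NN-Astro. In NN-ODC they were 167 and 163 against 115 and 72.8. Their part in the partner calls and in the receptor calls given next was not tested. Overlapping gene models were added for the members only, so the part of such models in these calls was not tested either. The other ionotropic glutamate receptor genes, 13 in all, gave 55 calls in 188 pairs (29.3%), 7 higher and 48 lower in D2, with a median log2 difference of -0.10. Of these genes, 6 of the 12 tested were called in NN-Astro, 7 of 11 in NN-ODC and 5 of 11 in Exc-CA1-Galntl6, beside 26.2%, 19.0% and 35.0% of all transcripts. They gave 50 calls (6 higher) with counts required in both strains and 34 with DESeq2 (16.5%), and fewer without D2 library 3.

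Chromatin accessibility at the same genes was read from the snATAC-seq table, which holds counts in 300819 peaks for 15 of the cell types. The members and their 2 kb flanks held 413 peaks, 180 at Grik2, 91 at Grik4, 46 each at Grik1 and Grik3, 28 at Neto1, 15 at Grik5 and 7 at Neto2. Over the 15 cell types, accessibility of promoter peaks (within 1 kb of the start of a protein-coding transcript) followed the transcript for Grik3 (r = 0.90), Neto1 (0.86) and Grik1 (0.82), and less so for Grik2 (0.64), Neto2 (0.63), Grik4 (0.28) and Grik5 (-0.08). The Grik1 promoter held 33.8 to 37.3 CPM in the 3 Inh types and 4.59 in Exc-DG. For Grik4 the remaining peaks of the gene followed the transcript (r = 0.95), with 488 CPM in Exc-CA3, 557 in Exc-Gpc6 and 152 in Exc-Cdh12. Some of the 15 types held few nuclei, down to 14 in 1 library of NN-OPC. Per the study's methods, snATAC-seq nuclei took their cell types from snRNA-seq, matched by accessibility over gene bodies and 2 kb upstream. Agreement between the assays across cell types was thus partly built in, and these correlations are descriptions.

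Strain differences of peaks were tested in the 5 cell types with the most snATAC-seq nuclei, 2169 (Exc-ENT) to 6256 (Exc-DG). Over all peaks, 5.97% were called in Exc-DG, 5.26% in Exc-CA1-Galntl6, 5.03% in Exc-CA3, 2.56% in Exc-CA1-Camk2d and 1.39% in Exc-ENT. The member peaks were called at 17 of 410 (4.15%), 13 of 412 (3.16%), 13 of 411 (3.16%), 7 of 387 (1.81%) and 4 of 351 (1.14%) in the same order, so not more often than peaks at large. The 54 calls were unequally spread. Grik3 had 17 of 227 tested pairs, Grik4 21 of 453, Grik1 10 of 213, Grik2 3 of 830, Grik5 3 of 75, Neto1 0 of 138 and Neto2 0 of 35. DESeq2 called 9 pairs in all. In Exc-CA3, leaving out either D2 library left 245 or 123 calls among all peaks against 15008 with both, so no Exc-CA3 call of a member was kept without them. Fewer simulated differences of the same size were recovered for peaks than for transcripts. Peaks described next are those called in at least 2 of the 5 cell types, a choice made after their values were seen. There were 9 of them, 4 at Grik3, 3 at Grik4 and 2 at Grik1.

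**Figure D4:**
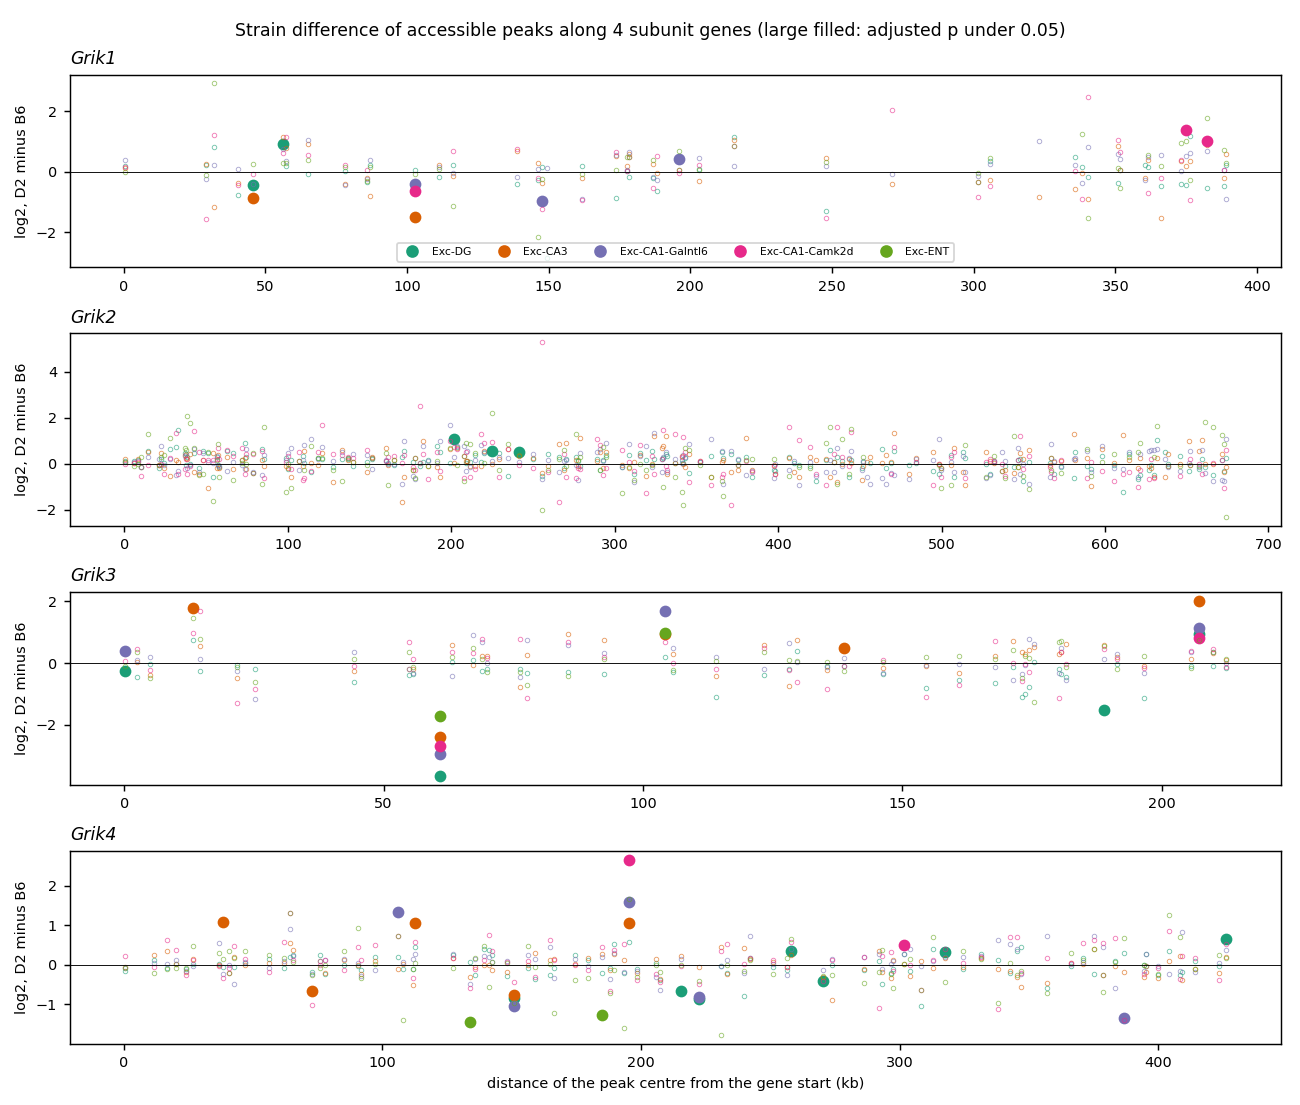
Log2 difference of D2 minus B6 at every tested peak of Grik1, Grik2, Grik3 and Grik4 against the distance of its centre from the gene start in kb, coloured by cell type, with large filled points at an adjusted p under 0.05 (edgeR). A single Grik3 peak at 60.9 kb lies between -3.65 and -1.72 in the 5 cell types, and Grik2 has 3 filled points, all in Exc-DG.

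The largest of these differences lay inside Grik3, a gene on the plus strand of chromosome 4. An intronic peak centred 60.9 kb from the gene start, chr4:125551416-125551712 (GRCm38, coordinates as deposited), was lower in D2 in all 5 cell types. Intronic peaks at 104.3 kb (chr4:125594645-125595339) and 207.1 kb (chr4:125697492-125698017) were higher in D2. They are shown as the intronic Grik3 peaks called in at least 2 cell types. The reference sequence (RefSeq GRCm38.p6, which is B6, plus strand) is given for the whole first peak and for the central 300 bases of the other 2, with matches to CAGATG or its reverse complement CATCTG, a neuronal bHLH motif, in capitals.
Grik3 peak at 60.9 kb, chr4:125551416-125551712: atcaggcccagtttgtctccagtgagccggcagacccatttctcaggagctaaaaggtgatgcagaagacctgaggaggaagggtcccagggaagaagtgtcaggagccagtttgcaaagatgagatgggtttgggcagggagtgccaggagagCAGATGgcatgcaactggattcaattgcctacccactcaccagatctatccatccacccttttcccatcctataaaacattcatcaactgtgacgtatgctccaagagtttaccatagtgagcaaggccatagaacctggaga
Grik3 peak at 104.3 kb, chr4:125594843-125595142: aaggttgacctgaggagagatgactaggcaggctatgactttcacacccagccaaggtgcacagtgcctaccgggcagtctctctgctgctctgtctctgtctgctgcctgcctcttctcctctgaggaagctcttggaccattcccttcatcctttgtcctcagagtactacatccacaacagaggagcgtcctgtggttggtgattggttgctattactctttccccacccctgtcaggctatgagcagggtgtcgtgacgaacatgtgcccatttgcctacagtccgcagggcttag
Grik3 peak at 207.1 kb, chr4:125697605-125697904: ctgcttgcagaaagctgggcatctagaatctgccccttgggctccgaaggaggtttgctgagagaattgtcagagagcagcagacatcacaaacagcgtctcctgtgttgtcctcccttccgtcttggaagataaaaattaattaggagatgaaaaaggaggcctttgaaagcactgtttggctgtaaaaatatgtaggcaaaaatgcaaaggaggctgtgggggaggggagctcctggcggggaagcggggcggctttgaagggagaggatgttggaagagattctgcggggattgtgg
The first held 1 match and the other 2 none. CAGATG occurred in 32.1% of the central 300 bases of all peaks. TGANTCA (AP-1, 14.5% of peaks), the MEF2 motif (CTA and TAG parted by any 4 bases, 4.87%) and the NFI palindrome (0.05%), searched on both strands, had no match in the 3. A match is not a binding site, and the D2 sequence was not used. Whether the deposited positions count from 0 or 1 is not stated, so the windows may be shifted by 1 base.

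At the 60.9 kb peak, Exc-DG held 94 and 89 counts in B6 against 4 and 10 counts in D2. This was 3.89 and 4.15 against 0.221 and 0.360 CPM (log2 -3.65 ± 0.31, adjusted p = 3.5e-25, edgeR). Exc-CA1-Galntl6 held 37 and 31 counts in B6 and 1 and 8 in D2 (log2 -2.96 ± 0.43, 1.0e-09). These 2 calls held under all 8 alternatives. Exc-CA3 held 33 and 28 against 8 and 5 (log2 -2.40 ± 0.40, 1.6e-06), and the call was lost without D2 library 2 (0.12) or D2 library 3 (0.25). Exc-ENT held 14 and 19 against 7 and 5 (log2 -1.72 ± 0.49, 0.043) and Exc-CA1-Camk2d 6 and 9 against 2 and 1 (log2 -2.67 ± 0.82, 0.046). Both were lost without either D2 library (0.096 and 0.44, and 0.28 and 0.56) or without B6 library 2 (0.20 and 0.15), and Exc-ENT also without B6 library 3 (0.16). The Exc-CA1-Camk2d call was also lost with the replicate block (0.066), and that peak had too few counts there to be tested without B6 library 3 or with at least 40 counts required. DESeq2 did not call Exc-ENT and gave no adjusted p in Exc-CA1-Camk2d. B6 and D2 libraries did not overlap in any of the 5, which adds nothing to the calls by which the peak was picked. The Grik3 transcript, on the other hand, was lower by 2.10-fold in Exc-DG, by 1.17-fold in Exc-ENT, and was not called in the other 3. D2 reads were mapped to a reference with substituted SNPs, so a deleted stretch of D2 DNA would also give few counts, which was not tested.

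The 104.3 kb peak was higher in D2 in 3 of 5 cell types. Exc-CA1-Galntl6 went from 30 and 23 counts in B6 to 74 and 105 in D2 (log2 1.68 ± 0.23, adjusted p = 4.5e-11, edgeR) and Exc-CA3 from 90 and 62 to 150 and 187 (log2 0.95 ± 0.15, 3.7e-07), the latter lost without D2 library 2 (0.15) or D2 library 3 (0.17). Exc-ENT was called as well (log2 0.97 ± 0.23, 0.0046), though not with DESeq2 (0.43) or without B6 library 2 (0.072), B6 library 3 (0.12) or D2 library 3 (0.28). In Exc-DG it stood at 0.21 ± 0.25, not called. The 207.1 kb peak was higher in 4 of 5. The counts went from 16 and 17 to 68 and 86 in Exc-CA3 (log2 2.02 ± 0.26, 3.2e-10, but 0.096 and 0.12 without D2 library 2 or 3) and from 61 and 48 to 117 and 138 in Exc-CA1-Galntl6 (log2 1.15 ± 0.18, 1.5e-08). In Exc-DG (log2 0.94 ± 0.23, 0.0020) the call was lost with DESeq2 (0.25) or without D2 library 3 (0.056), and in Exc-CA1-Camk2d (log2 0.82 ± 0.21, 0.0058) with DESeq2 (0.32) or without B6 library 3 (0.11), D2 library 2 (0.26) or D2 library 3 (0.37). At the Grik3 promoter the strains differed little and in both directions, by log2 -0.25 ± 0.08 in Exc-DG (0.033) and 0.39 ± 0.13 in Exc-CA1-Galntl6 (0.040). DESeq2 called neither (0.54 and 0.74). The first was also lost without B6 library 3 (0.58) or D2 library 2 (0.24), and the second without any 1 of the 4 libraries (0.068 to 0.39).

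**Figure D5:**
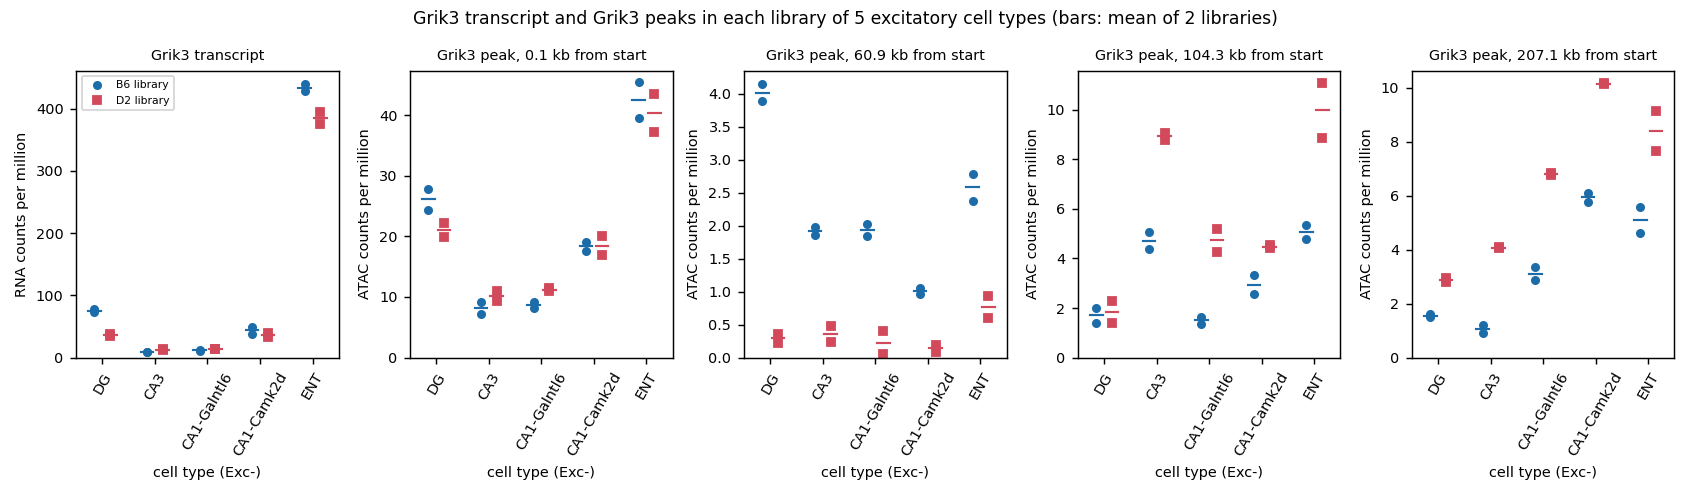
Grik3 transcript (CPM of RNA counts) and its 4 peaks called in at least 2 cell types (CPM of ATAC counts) in each library of 5 excitatory cell types, with bars at the mean of 2 libraries. The 60.9 kb peak falls from a mean of 4.02 to 0.290 CPM in DG, and the transcript is lower in D2 in DG as well, while in CA3 and CA1-Galntl6 the peak is lower and the transcript was not called.

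At Grik4, on the minus strand of chromosome 9, 3 intronic peaks differed in more than 1 cell type. They are shown as the sites of the repeated differences at this gene, on the plus strand of the same reference and with CAGATG or CATCTG in capitals.
Grik4 peak at 151.1 kb, chr9:42793277-42793576: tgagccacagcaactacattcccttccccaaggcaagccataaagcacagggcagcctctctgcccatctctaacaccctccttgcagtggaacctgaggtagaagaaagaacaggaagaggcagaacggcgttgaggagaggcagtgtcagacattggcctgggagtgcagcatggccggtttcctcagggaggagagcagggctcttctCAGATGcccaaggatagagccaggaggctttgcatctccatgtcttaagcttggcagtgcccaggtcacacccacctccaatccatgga
Grik4 peak at 195.5 kb, chr9:42748906-42749159: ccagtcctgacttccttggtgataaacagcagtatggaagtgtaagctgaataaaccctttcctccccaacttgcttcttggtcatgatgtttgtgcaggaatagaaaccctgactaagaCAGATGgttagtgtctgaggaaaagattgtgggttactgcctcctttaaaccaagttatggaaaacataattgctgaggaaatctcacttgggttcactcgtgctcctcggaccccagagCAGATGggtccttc
Grik4 peak at 222.5 kb, chr9:42721862-42722161: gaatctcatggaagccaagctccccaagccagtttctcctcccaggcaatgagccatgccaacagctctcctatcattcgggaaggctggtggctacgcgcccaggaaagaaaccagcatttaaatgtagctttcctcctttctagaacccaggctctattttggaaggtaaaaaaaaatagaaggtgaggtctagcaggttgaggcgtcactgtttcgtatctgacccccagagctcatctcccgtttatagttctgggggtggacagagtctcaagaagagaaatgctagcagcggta
The motif was matched 1, 2 and 0 times in these windows. The second sequence is the whole peak and the others are central 300 bases.

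The 151.1 kb peak was lower in D2, from 137 and 110 counts to 62 and 71 in Exc-DG (log2 -0.85 ± 0.17, adjusted p = 8.6e-05, edgeR), from 68 and 55 to 32 and 30 in Exc-CA1-Galntl6 (log2 -1.05 ± 0.24, 5.8e-04), and from 108 and 102 to 54 and 89 in Exc-CA3 (log2 -0.76 ± 0.17, 0.0011). The 3 calls were lost with DESeq2 (0.093, 0.23 and 0.21) and without D2 library 3 (0.12, 0.081 and 0.27), and the Exc-CA3 call also without D2 library 2 (0.37) or B6 library 3 (0.083). The 222.5 kb peak was lower in Exc-DG, from 139 and 172 counts to 61 and 107 (log2 -0.86 ± 0.16, 5.1e-06), a call kept under all 8 alternatives. It was also lower in Exc-CA1-Galntl6 (log2 -0.83 ± 0.23, 0.0097), though not with DESeq2 (0.57) or without B6 library 3 (0.32) or D2 library 2 (0.20). The 195.5 kb peak was higher in D2. It went from 6 and 11 counts to 25 and 29 in Exc-CA1-Galntl6 (log2 1.58 ± 0.40, 0.0026), from 0 and 4 to 19 and 17 in Exc-CA1-Camk2d (log2 2.66 ± 0.64, 0.0032) and from 18 and 12 to 30 and 42 in Exc-CA3 (log2 1.06 ± 0.32, 0.029). DESeq2 called none of the 3 (adjusted p = 0.39, 0.39 and 0.82), and without B6 library 2 the values by edgeR were 0.21, 0.080 and 0.14. The last 2 were also lost without D2 library 2 (0.28 and 0.34) or D2 library 3 (0.32 and 0.43), and Exc-CA3 without B6 library 3 (0.23). The Grik4 promoters were called in none of the 5 cell types.

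At Grik1, a peak 102.7 kb into an intron (chr16:88187121-88188107) was lower in D2 in Exc-CA3, from 91 and 69 counts to 28 and 37 (log2 -1.49 ± 0.22, adjusted p = 3.0e-08, edgeR), and lost without D2 library 2 (0.11) or D2 library 3 (0.15). In Exc-DG, with 130 and 102 counts against 96 and 141, it stood at log2 0.07 ± 0.15, not called. Exc-CA1-Galntl6 (log2 -0.42 ± 0.11, 0.0044) was lost with DESeq2 (0.32) or without B6 library 2 (0.10), B6 library 3 (0.063) or D2 library 2 (0.052), and Exc-CA1-Camk2d (log2 -0.65 ± 0.20, 0.047) with DESeq2 (0.70), with the replicate block (0.065) or without any 1 of the 4 libraries (0.094 to 0.54). The other Grik1 peak, at 45.5 kb, was lower in Exc-DG (log2 -0.45 ± 0.13, 0.013) and Exc-CA3 (log2 -0.87 ± 0.24, 0.013), and DESeq2 called neither. The first was lost without B6 library 2 (0.062), B6 library 3 (0.12) or D2 library 3 (0.23), and the second without B6 library 3 (0.20), D2 library 2 (0.26) or D2 library 3 (0.50). In Exc-CA3, where these 2 peaks were lower, the Grik1 transcript stood at log2 0.12 ± 0.18, not called. Grik1 transcripts in Exc-CA1-Fras1 and the non-neuronal types have no peak test here, since those types were not among the 5.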

How the data were processed

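The authors deposited raw counts for both assays, added up without normalization within each cell type and library, and listed nuclei separately. Per the study's methods, reads were mapped with Cell Ranger 6.0.2 (introns retained) or Cell Ranger ATAC 2.0.0 to mm10, with D2 SNPs written into it for the D2 libraries. Doublets were removed with DoubletFinder. The processing notes also list Seurat 4.0.5. Columns were placed by strain, since the tables number libraries 2 and 3 and the sample labels number replicates otherwise. The 16 methylation samples were not analysed here.

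Strains were compared with edgeR 4.0.16 in R 4.3.3 (TMM, quasi-likelihood F test, no covariate). Transcripts were filtered by filterByExpr and peaks by 10 counts over 4 libraries. Standard errors were the log2 difference over the root of F. The test across cell types had library and cell type as terms. Alternatives were DESeq2 1.42.0, RLE scaling, other filters, robust dispersion, overlapping genes added to the members, a replicate block and each library left out. Steps were tested on simulated data, where recovery was lower for peaks than for transcripts, and the recovery required for peaks was lowered after that was seen. Gene positions came from GENCODE vM21. All 7 members were named in every cell type; similar transcripts needed a mean of 5 CPM and counts in both strains, and partners were named where called in the most cell types, except for an item that is not reported here. Members and lists were chosen with earlier results of these data known.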

Additional observations from a re-analysis of the deposited data

Results flagged for a closer look

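Strain differences that differ between cell types were looked for with the test of all strain by cell type terms over the 17 cell types (edgeR, Benjamini-Hochberg over 21050 transcripts). The strain difference of Grik1 (adjusted p = 3.44e-08) varied among cell types, from log2 -1.04 in NN-MGC to 0.73 in Exc-CA1-Fras1. That of Grik3 (6.79e-08) ran from -1.29 in NN-Astro, on 52 counts in all, to 0.43 in Exc-CA3. That of Grik4 (2.9e-06) ran from -1.79 in NN-MGC, on 54 counts in all, to 0.95 in CR-CR. That of Neto1 (0.0124) ran from -0.65 in Inh-Lamp5 to 0.72 in Exc-Cdh12. The first 3 stayed under 0.05 in the 8 alternatives run, and Neto1 did so in 6 of them. Groups held 2 libraries, too few to look for outlying libraries. Summed markers also differed between the strains in NN-MGC, NN-Astro and CR-CR, as given above, and their part in these ranges was not tested.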

How the results depend on the processing

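The 20 calls of member transcripts became 8 with DESeq2 and 9 to 21 without each library (fewest without D2 library 3). The 54 peak calls became 9 with DESeq2 and 19 to 30 without each library. The 96 partner calls became 45 with DESeq2 and 49 to 84 without each library. Members called in the test across cell types numbered 3 to 5 without each library against 4, and 6 to 7 of 7 members kept their highest cell type. With the replicate block the counts were 21, 53 and 93. Same-numbered libraries did not deviate together in CPM (r over transcripts from -0.157 in Inh-MGE to 0.0653 in Exc-CA1-Camk2d, over -0.1 in 16 of 17 cell types), so the numbers were not taken as pairs. Counts per nucleus, which CPM does not show, were higher in library 3 than in library 2 except in D2 NN-VLMC. In Exc-CA3 they went from 9817 to 11704 in B6 and from 9879 to 10941 in D2. No called difference turned direction. The stricter filter on transcripts gave 14 calls, symbols counted in both strains 16 and no filter 24. Over all transcripts the share called also fell, from 22.1% with edgeR to 10.2% with DESeq2. Calls over all peaks went from 17758 to 4849 with DESeq2 in Exc-DG, and fell in the other cell types tested as well. Why a library or tool changed a count was not tested. Sparse columns, NN-VLMC and CR-CR above all, limit what could be called.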
